A study of Mus musculus with 13 samples.

Results

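The Hoxa to Hoxd genes are the homeobox transcription factor genes of the HoxA, HoxB, HoxC and HoxD clusters. Members were taken as every protein-coding gene of the GENCODE M21 annotation whose symbol is Hoxa, Hoxb, Hoxc or Hoxd followed by a number. The rule gave 39 of the 54838 genes in the count table, with 11 in the Hoxa cluster, 10 in Hoxb, 9 in Hoxc and 9 in Hoxd.

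Each Hox protein binds DNA through its homeodomain, and genes of the same number in different clusters are paralogs that arose by duplication of an ancestral cluster. In blood formation, many Hoxa and Hoxb genes are active in hematopoietic stem and progenitor cells (HSPCs) and are shut off as cells mature. The proteins act with TALE homeodomain cofactors such as Meis1, and continued expression of Hoxa9 together with Meis1 drives acute myeloid leukemia (AML) in mice.

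RNA-Seq was performed on 50000 sorted Lin-cKit+ bone marrow (BM) cells, a population enriched for HSPCs, from each of 13 C57BL/6J mice. The series addressed how a p53 missense mutation and oncogenic Nras act on these cells, alone and together. Libraries were made from total RNA with a stranded low-input kit, and the data are gene counts. Total counts per library ran from 12576174 to 29124022.

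All mice carried Mx1-Cre, a Cre transgene under an interferon-inducible promoter that is also active in cells other than blood cells, such as hepatocytes. Control mice (n = 3) carried no other allele. The p53mut mice (n = 3) had p53 R172H/+ and the NrasG12D mice (n = 3) had Nras G12D/+, each expressed from its own locus once Cre removes a stop cassette. NPmut mice (n = 4) had both alleles and were moribund when sampled. Control, p53mut and NrasG12D mice received 3 intraperitoneal injections of 100 μg polyinosinic-polycytidylic acid (pI-pC), an interferon inducer, from about 6 weeks of age and served as age-matched animals. NPmut mice received none, since NPmut mice died or became moribund soon after a first injection, and their BM cells carried recombined alleles without it. Genotype, injection and disease stage cannot be told apart in any comparison with NPmut mice. In these bulk samples, fewer cells of a type and less RNA per cell cannot be told apart either.

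Levels are given as RPKM, the deposited counts per 1000 bases of merged exons and per 1000000 counts of the library. Background was read from 1461 olfactory and vomeronasal receptor genes, which have no known use in HSPCs. A Hox gene was counted as above background in a group when its RPKM passed the 99th percentile of the receptor genes in every mouse of the group. That percentile lay between 0.147 and 0.243 RPKM in control libraries, 0.12 and 0.179 in p53mut libraries, 0.0675 and 0.0849 in NrasG12D libraries, and 0.0403 and 0.0931 in NPmut libraries. Receptor genes took 142 ± 44.7 counts per 1000000 (CPM) in control mice (SD, n = 3), 98.8 ± 39.6 CPM in p53mut mice (SD, n = 3), 41.5 ± 3.36 CPM in NrasG12D mice (SD, n = 3) and 34.8 ± 20.3 CPM in NPmut mice (SD, n = 4), so the background itself differed between the groups.

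Expression above background was seen for 11 of 39 Hox genes in control, p53mut and NrasG12D mice and for 10 of 39 in NPmut mice. Each of these genes was in the Hoxa or the Hoxb cluster. In the Hoxa cluster they were Hoxa3, Hoxa4, Hoxa5, Hoxa6, Hoxa7, Hoxa9 and Hoxa10 in all 4 groups. In the Hoxb cluster they were Hoxb3, Hoxb4 and Hoxb6 in all 4 groups and Hoxb2 in every group but NPmut. In NPmut mice this depended on the rule, as Hoxb2 was included with the 95th percentile. Hoxb6 and Hoxa10 were not included with a minimum of 0.1 RPKM or of 10 counts, and Hoxa4 not with 10 counts. Hoxb6 had 2, 7, 7 and 2 counts in the NPmut mice. The other 28 genes, including all 9 of Hoxc and all 9 of Hoxd, were above background in no group. Hoxd4 had 0 counts in each library, which allows a level of up to 0.0349 to 0.0809 RPKM depending on the library (3 counts, counting error only). Of its exon bases, 39.1% are shared with Gm28230 and 13.2% with Hoxd3 on the same strand. How reads there were counted is not given, so this limit may be too low.

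**Figure D1:**
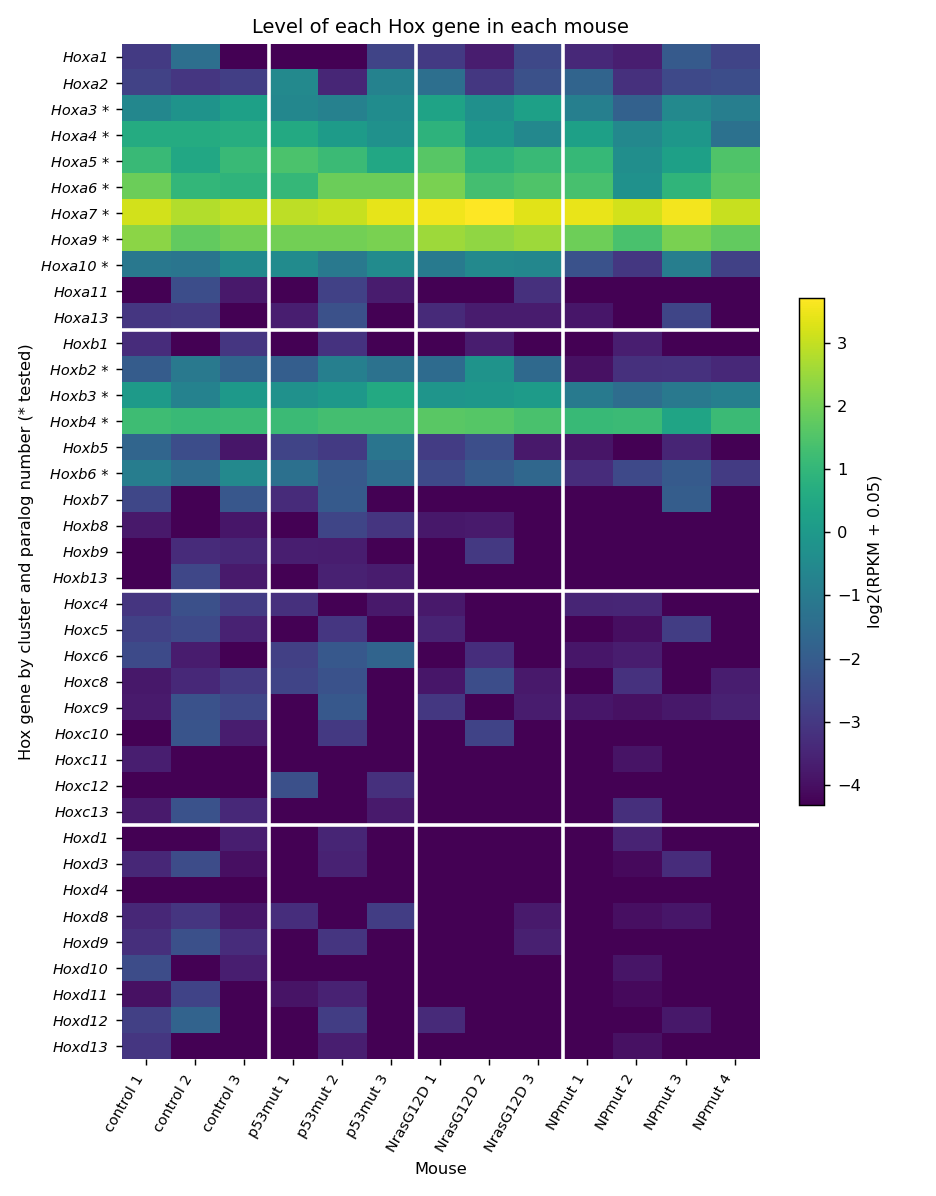
Heat map of log2(RPKM + 0.05) for the 39 Hox genes (rows, by cluster and number) in the 13 mice (columns, by group), with a star at the 11 genes that passed the filter on low counts. Levels above background lie in Hoxa3 to Hoxa10, Hoxb2 to Hoxb4 and Hoxb6, and the Hoxb2 row is darkest, which is lowest, in the 4 NPmut mice.

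The same 11 genes were the only members to pass the filter on low counts and to be tested for differences between groups. Among the 28 untested genes the highest count in any library was 16 for Hoxa, 18 for Hoxb, 10 for Hoxc and 10 for Hoxd. Hoxb5, which marks long-term stem cells in mouse BM, was the untested gene with the 18 counts, and its mean over all libraries was 0.0989 RPKM. With no filter Hoxb5 was called lower in NPmut than in p53mut mice, at −3.47 on the log2 scale (SE 1.07, adjusted p = 0.0265 by edgeR), as it was where it passed the filter without control mouse 3 (0.0430) or p53mut mouse 2 (0.0477), and it was not called in the 5 other fits without a mouse in which it passed (0.0593 to 0.0821). No other untested Hox gene was called in any fit. For 7 of the tested genes all 13 libraries passed the filter's minimum of 0.598 CPM. Hoxa4 passed it in 12 libraries, and Hoxa10 in 10, of which 1 was from NPmut mice (mouse 3). Hoxb2 passed it in 9 libraries, none of them from NPmut mice, and Hoxb6 in 5, of which 3 were control and 2 were p53mut. Hoxa10, Hoxb2 and Hoxb6 were therefore tested only because of the groups in which they were high. No count or median over the tested genes is used as support.

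The clusters lie on 4 chromosomes (GRCm38.p6). Hoxa spans chr6:52155590-52260880, Hoxb chr11:96194316-96368256, Hoxc chr15:102921103-103036852 and Hoxd chr2:74668310-74765142. Summed over its 11 genes, the Hoxa cluster reached 19.6 ± 2.77 RPKM in control (SD, n = 3), 20.8 ± 1.70 in p53mut (SD, n = 3), 25.5 ± 2.595 in NrasG12D (SD, n = 3) and 18.8 ± 3.45 in NPmut mice (SD, n = 4). The highest sums were those of the NrasG12D mice, from 23.4 to 28.4 RPKM, above the 22.7 RPKM that was the highest of the other groups. The Hoxb cluster reached 4.16 ± 0.378 RPKM in control, 4.40 ± 0.643 in p53mut, 4.61 ± 0.502 in NrasG12D and 2.57 ± 0.273 in NPmut mice (SD, same n). All 4 NPmut sums, from 2.18 to 2.80 RPKM, were below the lowest sum of another group, 3.69 RPKM. These sums were not tested.

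Hoxc genes summed to 0.525, 0.475, 0.166 and 0.119 RPKM in control, p53mut, NrasG12D and NPmut mice, and Hoxd genes to 0.431, 0.151, 0.0337 and 0.0476 RPKM. These are group means. For Hoxc each control and p53mut mouse was above each NrasG12D and NPmut mouse, whereas for Hoxd p53mut mice 1 (0.0723 RPKM) and 3 (0.0872 RPKM) were below NPmut mice 2 (0.0985 RPKM) and 3 (0.0918 RPKM). From the mean receptor RPKM, background alone gave an expected 25.5 Hoxc counts in control mice against 67 observed, and 10.5 against 29 in NPmut mice. For Hoxd the expected numbers were 30.6 against 59 in control and 12.6 against 13 in NPmut mice. The part of background reads in the Hoxc and Hoxd differences between groups was not tested.

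**Figure D2:**
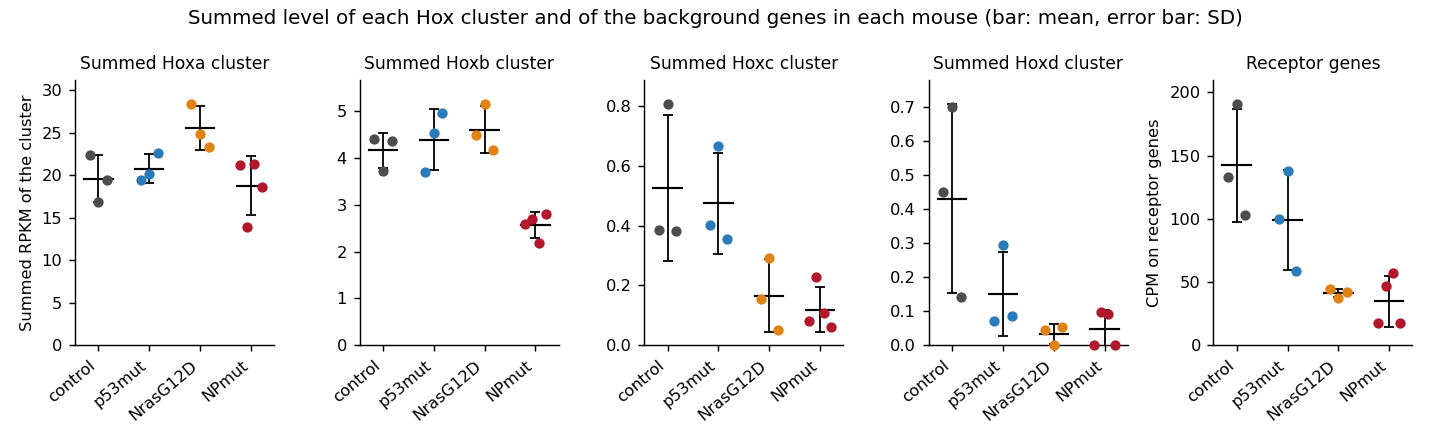
Summed RPKM of the Hoxa, Hoxb, Hoxc and Hoxd clusters and CPM of the receptor genes in each mouse (points), with group mean and SD. Hoxb sums of the 4 NPmut mice (2.18 to 2.80 RPKM) sit below those of the other 9 mice. The mean of the receptor genes is highest in control mice, but p53mut mouse 2 (138 CPM) lies above control mice 1 (133 CPM) and 3 (103 CPM).

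By paralog number, levels above background were found for numbers 2, 3, 4, 5, 6, 7, 9 and 10, and for none of 1, 8, 11, 12 and 13. Paralog group 7, almost all of it Hoxa7, was the most abundant in every group, with 8.07, 8.78, 11.5 and 9.91 RPKM in control, p53mut, NrasG12D and NPmut mice. It made up 32.6% of the summed Hox RPKM in control and 46.3% in NPmut mice. Paralog group 9 followed with 4.29, 4.15, 5.58 and 3.51 RPKM, mostly from Hoxa9. Paralog group 3, mainly Hoxa3 and Hoxb3, stood at 1.75, 1.66, 1.96 and 0.905 RPKM, and its highest NPmut mouse (1.11 RPKM) was below the lowest mouse of the other groups (1.40 RPKM). The remaining groups with signal were number 4 with 3.81, 3.43, 3.99 and 2.69 RPKM, number 6 with 2.99, 3.57, 3.37 and 2.21 RPKM, and number 5 with 2.09, 2.28, 2.42 and 1.71 RPKM. Numbers 2 and 10 were the least abundant of those with signal, at 0.382, 0.764, 0.651 and 0.187 RPKM for number 2 and 0.600, 0.622, 0.590 and 0.209 RPKM for number 10. Hoxa2, above background in no group by the main rule, held 0.087, 0.404, 0.184 and 0.142 RPKM of the number 2 sums. In NPmut mice number 2 had 0 genes above background.

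Promoter sequences are shown for Hoxa7 and Hoxa9, the most abundant members, for Hoxb4, the most abundant of its cluster, and for Hoxa3, the only member called in a comparison that had an entry. RefSeq promoters (GRCm38.p6, 250 bases before to 50 after a start) were matched for 22 of the 39 Hox genes, 24 promoters in all. Hoxb2, Hoxb3 and Hoxb6 had no entry. Capitals mark a match, on either strand, to one of 6 motifs. For MEIS factors this was TGACAG, and for the composite site of a Hox protein with a cofactor TGATTNAT. For GATA factors the motifs searched were AGATAA and, as an alternative, TGATAA. The homeodomain core was searched as TAATTA, and the CCAAT box by the letters of its name, which overlap no other motif in the list.
Hoxa3 (chr6:52213018-52213317, minus strand): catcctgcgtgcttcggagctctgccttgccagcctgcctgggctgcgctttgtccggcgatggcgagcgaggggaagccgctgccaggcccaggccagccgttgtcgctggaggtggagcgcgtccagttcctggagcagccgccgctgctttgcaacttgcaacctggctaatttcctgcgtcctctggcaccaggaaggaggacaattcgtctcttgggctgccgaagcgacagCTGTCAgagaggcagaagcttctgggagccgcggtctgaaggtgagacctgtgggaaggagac
Hoxa7 (chr6:52218524-52218823, minus strand): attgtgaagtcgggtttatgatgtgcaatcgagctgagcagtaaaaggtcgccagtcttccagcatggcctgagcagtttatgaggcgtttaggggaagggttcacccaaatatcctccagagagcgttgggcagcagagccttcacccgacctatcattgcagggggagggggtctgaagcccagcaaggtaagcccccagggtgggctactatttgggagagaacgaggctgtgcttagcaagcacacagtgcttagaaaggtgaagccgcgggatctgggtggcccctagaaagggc
Hoxa9 (chr6:52227321-52227620, minus strand): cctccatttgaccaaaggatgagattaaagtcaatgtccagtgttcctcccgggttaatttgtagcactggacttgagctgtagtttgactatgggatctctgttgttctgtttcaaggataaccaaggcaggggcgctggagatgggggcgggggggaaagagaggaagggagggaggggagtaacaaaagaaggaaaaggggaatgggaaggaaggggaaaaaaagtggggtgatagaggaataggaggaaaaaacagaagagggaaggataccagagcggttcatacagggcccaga
Hoxb4 (chr11:96318017-96318316, plus strand): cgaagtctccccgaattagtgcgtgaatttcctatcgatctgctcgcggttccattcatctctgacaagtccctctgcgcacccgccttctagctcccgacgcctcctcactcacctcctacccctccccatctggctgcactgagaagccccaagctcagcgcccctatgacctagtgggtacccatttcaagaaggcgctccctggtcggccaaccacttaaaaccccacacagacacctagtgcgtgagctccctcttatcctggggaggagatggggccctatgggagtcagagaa

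The Hoxa3 window held one MEIS match in reverse orientation, and the Hoxa7, Hoxa9 and Hoxb4 windows held no match to any of the 6 motifs. Over all 24 Hox promoters, TGATTNAT was present in 2 (Hoxa2 and Hoxd11), against 3.22% of 32851 promoters of the same length. TGACAG was present in 2 (Hoxa2 and Hoxa3), against 19.2% of all promoters. The most frequent motif was CCAAT, in 15 of the 24 Hox promoters and 37.4% of all promoters. TGATAA was present in 3 (9.05% of all), TAATTA in 2 (5.29% of all) and AGATAA in 0 (11.2% of all). These matches describe the windows and mark no binding.

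Among the Hoxa genes, Hoxa7 (ENSMUSG00000038236, chr6:52214491-52221854), a target of MLL fusion proteins in leukemia, had the highest level of all members. Its RPKM was 8.98, 6.90 and 8.04 in the control mice, 7.45, 8.11 and 10.5 in the p53mut mice, 11.5, 13.03 and 10.03 in the NrasG12D mice and 10.7, 8.83, 11.7 and 8.13 in the NPmut mice. All 3 NrasG12D mice were above all 3 control mice, whereas NPmut and control mice overlapped. Hoxa9 (ENSMUSG00000038227, chr6:52223100-52231089) supports HSPC expansion and is active in many AMLs. Its RPKM was 4.89, 3.36 and 3.99 in control, 3.97, 3.97 and 4.21 in p53mut, 5.69, 5.15 and 5.68 in NrasG12D and 3.81, 2.58, 4.18 and 3.39 in NPmut mice. The NrasG12D mice were higher than each of the other 10 mice.

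Hoxa6 was at 3.66, 1.93 and 1.81 RPKM in control, 1.97, 3.69 and 3.70 in p53mut, 4.22, 2.45 and 2.79 in NrasG12D and 2.52, 0.786, 1.84 and 3.18 in NPmut mice. Hoxa5, which favors myeloid over erythroid differentiation when overexpressed, was at 2.11, 1.36 and 2.15 RPKM in control, 2.67, 2.15 and 1.37 in p53mut, 3.06, 1.76 and 2.14 in NrasG12D and 2.05, 0.732, 1.14 and 2.75 in NPmut mice. For both genes the 4 groups overlapped, and the spread within groups was wide. Hoxa4 was at 1.49, 1.49 and 1.57 RPKM in control, 1.41, 1.01 and 0.788 in p53mut, 1.76, 0.894 and 0.620 in NrasG12D and 1.13, 0.625, 0.908 and 0.349 in NPmut mice. For Hoxa4 the control mice were close together and above all 4 NPmut mice, while NrasG12D mice spanned both.

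Hoxa3 (ENSMUSG00000079560, chr6:52169062-52213336) is required for thymus and parathyroid development. Its RPKM was 0.610, 0.831 and 1.12 in control, 0.610, 0.524 and 0.706 in p53mut, 1.22, 0.764 and 1.14 in NrasG12D and 0.508, 0.234, 0.633 and 0.489 in NPmut mice. NPmut mice were all below the NrasG12D mice and overlapped with control and p53mut mice. Hoxa10, a myeloid progenitor factor, was at 0.416, 0.382 and 0.649 RPKM in control, 0.687, 0.426 and 0.677 in p53mut, 0.430, 0.634 and 0.604 in NrasG12D and 0.153, 0.0735, 0.492 and 0.0973 in NPmut mice. In NPmut mice 1, 2 and 4 Hoxa10 was below all other mice, and in NPmut mouse 3 it was within their range.

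In the Hoxb cluster, Hoxb4 (ENSMUSG00000038692, chr11:96318267-96321638), which expands HSCs when overexpressed, had the highest level. Its RPKM was 2.28, 2.14 and 2.16 in control, 2.16, 2.43 and 2.40 in p53mut, 3.11, 2.98 and 2.59 in NrasG12D and 2.07, 2.18, 1.25 and 2.17 in NPmut mice. The NrasG12D mice were again above all others, and NPmut mouse 3 was the lowest of the 13. Hoxb3 (ENSMUSG00000048763, chr11:96323326-96347930), whose loss together with Hoxb4 reduces HSC proliferation, was at 0.989, 0.543 and 0.960 RPKM in control, 0.792, 0.914 and 1.41 in p53mut, 0.855, 0.899 and 1.01 in NrasG12D and 0.448, 0.315, 0.429 and 0.505 in NPmut mice. All 4 NPmut mice were below the other 9 mice.

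Hoxb2 (ENSMUSG00000075588, chr11:96350525-96354012), best known for patterning the hindbrain, was at 0.204, 0.430 and 0.249 RPKM in control, 0.215, 0.505 and 0.360 in p53mut, 0.302, 0.817 and 0.283 in NrasG12D and 0.0144, 0.0591, 0.0615 and 0.0456 in NPmut mice. The NPmut values rested on 1, 6, 4 and 2 counts, against 10 to 44 counts in the other mice, and there was no overlap. Hoxb6 (ENSMUSG00000000690, chr11:96292476-96301569), which immortalizes myeloid progenitors when overexpressed, was at 0.482, 0.318 and 0.637 RPKM in control, 0.343, 0.187 and 0.305 in p53mut, 0.119, 0.198 and 0.268 in NrasG12D and 0.0510, 0.122, 0.191 and 0.0810 in NPmut mice. For Hoxb6, control mice were above all NrasG12D and NPmut mice, and the 3 mutant groups overlapped with each other.

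**Figure D3:**
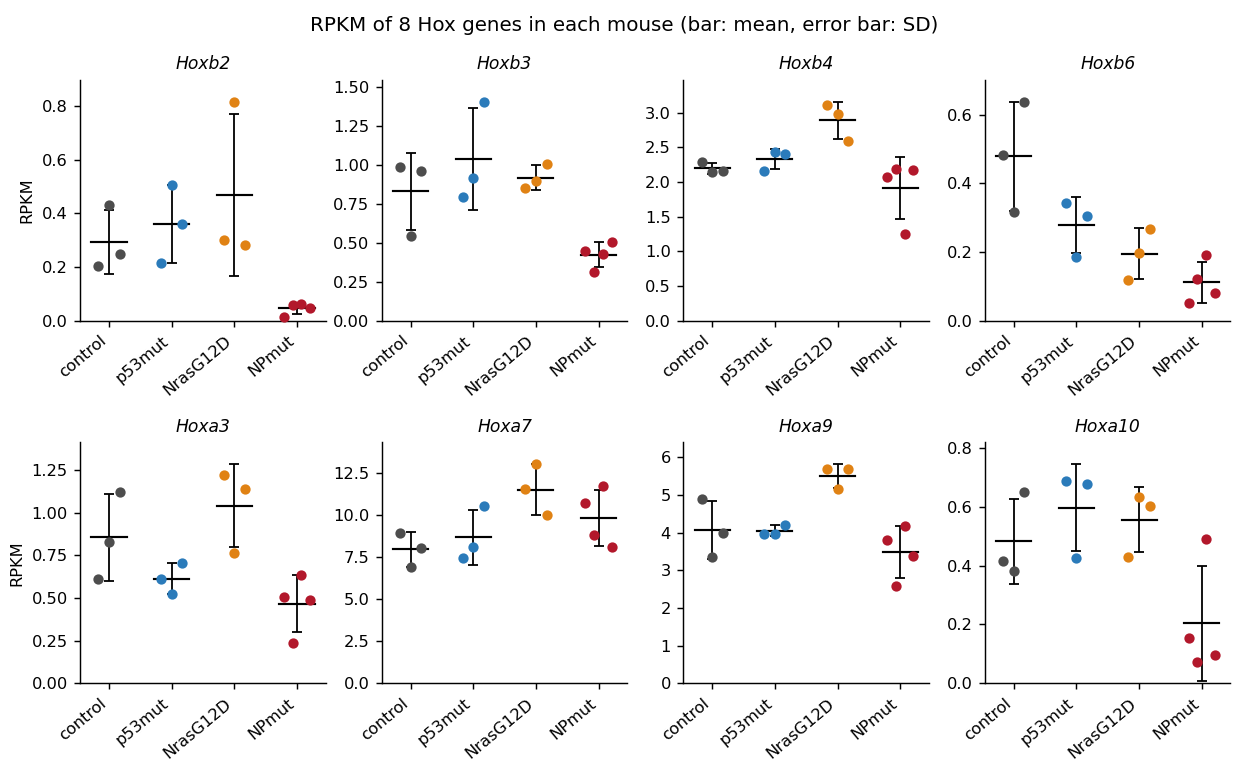
RPKM of Hoxb2, Hoxb3, Hoxb4, Hoxb6, Hoxa3, Hoxa7, Hoxa9 and Hoxa10 in each mouse (points), with group mean and SD (n = 3, 3, 3 and 4). Hoxb2 and Hoxb3 of the 4 NPmut mice lie below all other mice, and Hoxa9 and Hoxb4 of the 3 NrasG12D mice lie above all other mice.

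In the order of mean RPKM over all libraries, Hoxa7 (9.54) and Hoxa9 (4.22) led, followed by Hoxa6 (2.66), Hoxb4 (2.30), Hoxa5 (1.96), Hoxa4 (1.08), Hoxb3 (0.774), Hoxa3 (0.722), Hoxa10 (0.440), Hoxb2 (0.273) and Hoxb6 (0.254). The order of close members differs by group, with Hoxb6 above Hoxb2 in control (0.479 and 0.294 RPKM) and NPmut mice (0.111 and 0.0451 RPKM), and Hoxa3 above Hoxb3 in every group but p53mut. In control mice Hoxa7, at 7.97 ± 1.04 RPKM (SD, n = 3), stood clear of Hoxa9, at 4.08 ± 0.771 RPKM (SD, n = 3). The levels of Hoxa6 (2.46 ± 1.04 RPKM), Hoxb4 (2.20 ± 0.0771 RPKM) and Hoxa5 (1.87 ± 0.442 RPKM) in control mice did not differ beyond their spread, nor did those of Hoxa3 (0.854 ± 0.257 RPKM) and Hoxb3 (0.831 ± 0.249 RPKM).

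The comparison of NPmut with control mice addresses the double mutant against Cre alone. Hoxb2 fell in NPmut mice, and Hoxb6 was called lower in the main fit but not with no filter on low counts. No Hox gene rose, as edgeR and DESeq2 each called 0 higher and 1 of the 7 with an unadjusted p under 0.05, Hoxa7, was higher. Of all 17795 genes tested, 4561 had an unadjusted p under 0.05 by edgeR, and nothing is read from the 7. Hoxb2 fell from 0.294 ± 0.119 to 0.0451 ± 0.0217 RPKM and was lower in 4 of 4 NPmut mice. Its difference on the log2 scale was −2.51 with a 95% confidence interval from −3.79 to −1.23 and an adjusted p of 0.0153, by the quasi-likelihood test of edgeR with Benjamini-Hochberg adjustment. Hoxb6 fell from 0.479 ± 0.160 to 0.111 ± 0.0606 RPKM, also with no overlap, by 1.93 on the log2 scale (SE 0.530, adjusted p = 0.0303 by the same edgeR test). These were 2 of the 11 tested Hox genes, against 3.69% of all 17795 genes tested that were lower at an adjusted p under 0.05 with a change of 2-fold or more, and nothing is read from this share.

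Both calls rested on few counts and on single mice. Leaving out control mouse 2 took Hoxb2 to an adjusted p of 0.0741 by edgeR. The Hoxb6 call was lost in 4 of the 13 fits that left out a mouse, with an adjusted p of 0.0915 without control mouse 1, 0.151 without control mouse 3, 0.0768 without NPmut mouse 1 and 0.0504 without NPmut mouse 4. With the share of receptor reads as a term, Hoxb2 had a log2 fold change of −1.43 and an adjusted p of 0.400 by edgeR, and Hoxb6 one of −1.55 and 0.318. Of the Hoxb2 counts, the mean receptor RPKM would account for 8.23% in control and 13.6% in NPmut mice. For Hoxb6 the adjusted p by edgeR was 0.0526 with the replicate number as a block, 0.0968 with no filter and 0.0717 with only the compared groups, so that its call held in 4 of 8 alternatives, against 7 of 8 for Hoxb2.

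Hoxb3 was lower in RPKM in every NPmut mouse than in any control mouse, but not after TMM scaling. It had a log2 fold change of −0.86 (SE 0.288), and its adjusted p of 0.0678 by edgeR missed the threshold. Over the alternatives other than leaving out a mouse, its log2 fold change ran from −1.60 to −0.83, and it was called in 0 of 9. The other members that are central to leukemia biology gave no call. Hoxa9 differed by −0.11 on the log2 scale (SE 0.146, 95% confidence interval −0.43 to 0.20) and Hoxb4 by −0.07 (SE 0.226, interval −0.55 to 0.42). Hoxa7 was the 1 tested member with a positive difference, 0.42 on the log2 scale (SE 0.155, adjusted p = 0.0982 by edgeR). Hoxa10 differed by −1.15 with an SE of 0.513 and an adjusted p of 0.176 by edgeR. Without NPmut mouse 3 alone it was called, at −2.02 (adjusted p = 0.00765), and also against NrasG12D mice (−2.27, 0.00446), against p53mut mice (−2.36, 0.00298) and in the interaction (−2.60, 0.0235), so whether edgeR called it depended on 1 mouse. That mouse was also the only NPmut mouse in which Hoxa10 passed the filter's minimum. When scaled by library totals alone, the median of all genes in this comparison moved from 0.01 to −0.11 on the log2 scale, and the sign of each of these differences was kept.

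Against NrasG12D mice, NPmut mice had lower Hoxb2, Hoxb3 and Hoxa3. These were 3 of 11 tested Hox genes, against 2.6% of all genes tested that were lower by the same rule. Hoxb2 fell by 3.22 on the log2 scale (SE 0.590, adjusted p = 0.00441 by edgeR), from 0.468 ± 0.303 RPKM, and stayed past the threshold in each of the 13 fits that left out a mouse. Its log2 fold change ran from −3.48 to −2.52 in those fits. Receptor reads were at 44.4, 37.8 and 42.2 CPM in NrasG12D and 17.6, 46.6, 57.3 and 17.5 CPM in NPmut mice, and with them as a term the log2 fold change was −3.11 (SE 0.600, adjusted p = 0.00535 by edgeR). Hoxb3 fell by 1.05 on the log2 scale (SE 0.287, adjusted p = 0.0333 by edgeR), from 0.920 ± 0.0786 to 0.424 ± 0.0796 RPKM. Hoxa3 fell by 1.11 on the log2 scale (SE 0.302, adjusted p = 0.0336 by edgeR), from 1.04 ± 0.242 to 0.466 ± 0.167 RPKM. For the last 2 genes the groups did not overlap, but each call held in 7 of 9 other alternatives and in only 7 (Hoxb3) and 8 (Hoxa3) of the 13 fits, and each was lost without any one of the NrasG12D mice (adjusted p of 0.0781, 0.0985 and 0.111 for Hoxb3 and of 0.135, 0.0501 and 0.112 for Hoxa3 without mouse 1, 2 and 3). Without NPmut mouse 1, 2 or 3 Hoxb3 had 0.0642, 0.0622 or 0.0535, and Hoxa3 had 0.0619 without NPmut mouse 1 and a log2 fold change of −0.90 without NPmut mouse 2.

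Hoxa9 was also lower in NPmut than in NrasG12D mice by a smaller step, −0.59 on the log2 scale (SE 0.145, adjusted p = 0.0203 by edgeR), from 5.51 ± 0.308 to 3.49 ± 0.685 RPKM. It brought to 4 of 11 the Hox genes past the adjusted p alone, against 4.97% of all genes that were lower at any fold. Leaving out NrasG12D mouse 1 gave Hoxa9 an adjusted p of 0.0803 by edgeR, mouse 2 0.0620 and mouse 3 0.0743, and the fit of only the compared groups gave 0.0640. Hoxa7 differed by −0.16 on the log2 scale (SE 0.152) between these groups, within its error.

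Relative to p53mut mice, Hoxb2 and Hoxb3 were lower in NPmut mice, 2 of 11 tested Hox genes against 3.1% of all genes tested. Hoxb2 fell by 2.83 on the log2 scale (SE 0.599, adjusted p = 0.00808 by edgeR), from 0.360 ± 0.145 RPKM, in all 13 fits that left out a mouse. With receptor reads as a term its log2 fold change was −2.08 (SE 0.838), with an adjusted p of 0.139 by edgeR. Hoxb3 fell by 1.22 on the log2 scale (SE 0.287, adjusted p = 0.0148 by edgeR), from 1.04 ± 0.326 RPKM. The Hoxb3 call was lost only without p53mut mouse 3, with an adjusted p of 0.112, among fits that left out a mouse. It was also lost in the fit of only the compared groups, with an adjusted p of 0.06355 by edgeR. DESeq2 called Hoxa10 as well, at an adjusted p of 0.0491, where edgeR gave 0.0841 and a log2 fold change of −1.48. The 3 comparisons share the 4 NPmut mice.

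**Figure D4:**
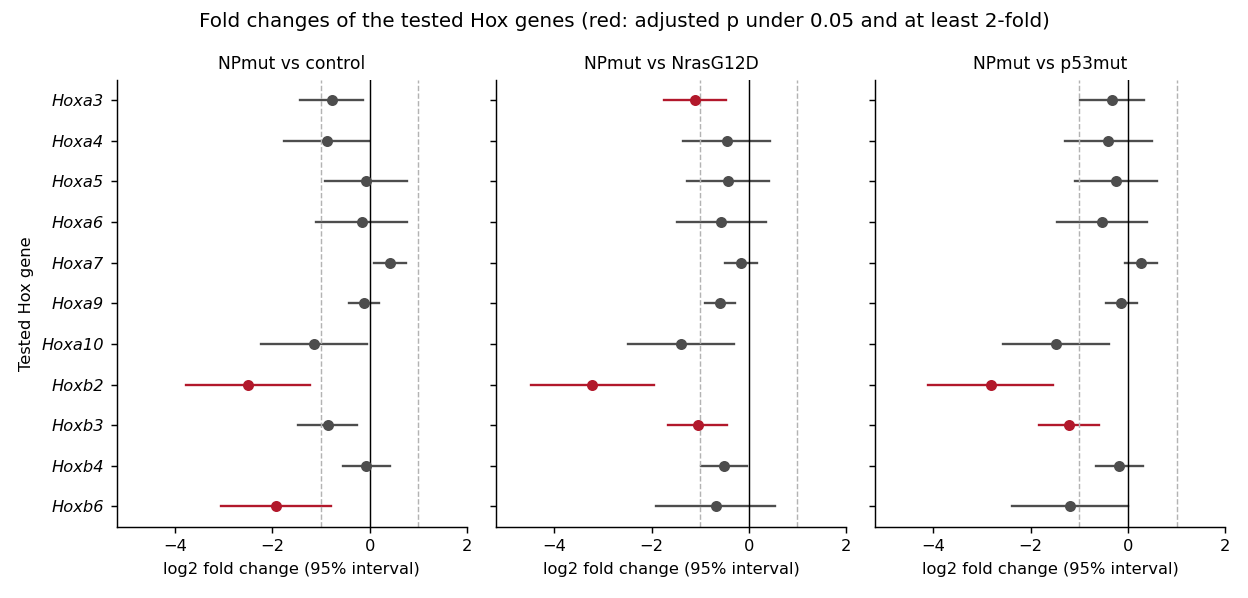
Log2 fold changes with 95% confidence intervals of the 11 tested Hox genes in NPmut mice against control, NrasG12D and p53mut mice, in red where a gene was called (adjusted p under 0.05, change of 2-fold or more). Hoxb2 is called in all 3 comparisons, Hoxb3 in 2, and Hoxb6 and Hoxa3 in 1 each.

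The interaction asks whether the NPmut difference departs from the sum of the p53mut and NrasG12D differences on the log2 scale. It was called for Hoxb2 alone, 1 of 11 tested Hox genes, against 0.938% of all genes tested that were lower by this rule. That share was 167 genes, and the number ran from 55 without control mouse 2 to 327 without NPmut mouse 3. Hoxb2 had an interaction of −3.54 (SE 0.817, adjusted p = 0.0440 by edgeR), as it was 0.71 (SE 0.550) in NrasG12D against control, 0.32 (SE 0.558) in p53mut against control and −2.51 in NPmut against control. The call was kept in only 2 of the 13 fits that left out a mouse, those without NPmut mouse 2 or NPmut mouse 3, and the adjusted p ran from 0.0569 to 0.143 in the other 11. Hoxb3 had an interaction of −1.41 (SE 0.418) with an adjusted p of 0.101 by edgeR and of 0.0346 by DESeq2. Hoxa9, at −0.61 (SE 0.214), did not pass, with an adjusted p of 0.168 by edgeR.

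In single mutants no Hox gene passed the test. In p53mut against control mice edgeR called 0 of 11 Hox genes and 0% of all genes tested, and DESeq2 called 0 Hox genes. By edgeR 0 of 11 had an unadjusted p under 0.05, against 415 of all 17795 genes tested. With the replicate block and only the control and p53mut libraries, edgeR called 25 of 16685 genes, 4 higher and 21 lower, and 0 Hox genes. Log2 fold changes of the tested members ran from −0.74 (Hoxb6) to 0.37 (Hoxa6). In NrasG12D against control mice edgeR called 0.00562% of all genes tested, which was 1 gene. This number was 0 with library totals or with receptor reads as a term, 28 with the replicate block, 75 with DESeq2 and 81 with only the compared groups. Of the Hox genes edgeR called 0 of 11, and DESeq2 called 0. By edgeR 3 of 11 had an unadjusted p under 0.05, against 1642 of all 17795 genes tested. The 3 Hox genes were Hoxa7 at 0.58 (SE 0.164, adjusted p = 0.244 by edgeR), Hoxa9 at 0.48 (SE 0.156, adjusted p = 0.327) and Hoxb6 at −1.25 (SE 0.560, adjusted p = 0.524). For each of the 3 the NrasG12D mice did not overlap with control mice, and the interval of the Hoxa7 difference ran from 0.23 to 0.93. How many of all genes did not overlap was not counted. All 3 comparisons with control mice use the same 3 control animals.

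Within the 4 clusters the annotation places 46 further genes, of which 3 were tested. Hoxb3os, a non-coding gene antisense to Hoxb3 and Hoxb2, was at 0.240, 0.238 and 0.466 RPKM in control, 0.499, 0.279 and 0.527 in p53mut, 0.809, 0.647 and 0.549 in NrasG12D and 0.143, 0.0572, 0.166 and 0.133 in NPmut mice. The NPmut mice were below and the NrasG12D mice above all others. It fell in NPmut against NrasG12D mice by 2.38 on the log2 scale (SE 0.403, adjusted p = 0.00301 by edgeR) and against p53mut mice by 1.75 (SE 0.409, adjusted p = 0.0145), while the −1.25 (SE 0.412) against control mice had an adjusted p of 0.0654. Its interaction was −2.88 (SE 0.581, adjusted p = 0.0262 by edgeR). The call against p53mut mice was lost without p53mut mouse 1 (adjusted p = 0.0611) or 3 (0.0799) and with only the compared groups (0.0662), and the interaction without control mouse 1 (0.0741) or 2 (0.0929), p53mut mouse 1 (0.0790) or 3 (0.0850), or NrasG12D mouse 1 (0.0715), 2 (0.0718) or 3 (0.0508). Exons of Hoxb3os overlap 27.3% of the Hoxb2 exon bases and 52.9% of those of Hoxb3. How the counting treated strand is not given in the sources used here, so reads in these stretches cannot be told apart, and Hoxb2, Hoxb3 and Hoxb3os are uncertain to that extent. Hoxaas3, whose exons cover 20.4% of those of Hoxa7, differed by −0.55 in NPmut against control mice (adjusted p = 0.714 by edgeR) with at most 13 counts in a library. The sign of this difference turned, with −0.98 to 0.24 with a mouse left out and −0.68 to 0.94 over the other alternatives. The pseudogene Gm11539 differed by 0.40 (adjusted p = 0.277).

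The TALE cofactor gene Meis1 fell in NPmut mice against each other group. It was at 12.01, 7.50 and 12.1 RPKM in control, 10.3, 7.10 and 13.2 in p53mut, 10.1, 10.1 and 9.77 in NrasG12D and 3.61, 1.39, 4.53 and 2.36 in NPmut mice, so that no NPmut mouse was within the range of the other groups. Against control it fell by 1.73 on the log2 scale (SE 0.298, adjusted p = 0.00339 by edgeR). With receptor reads as a term the log2 fold change was −2.07 (SE 0.564), and the call was lost (adjusted p = 0.0636). The interaction did not pass by edgeR, at −1.69 (SE 0.435, adjusted p = 0.0701), but was called by DESeq2 (0.00384), with the replicate block (0.0289), and without p53mut mouse 2 (0.0441) or NPmut mouse 3 (0.0184). Of the 10 TALE cofactors counted here 8 were tested and 1, Meis1, was called, and their median log2 fold change was −0.029 against 0.014 for all genes.

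Few regulators of Hox chromatin passed the same test of NPmut against control mice. Of 18 tested trithorax-related activators, which keep Hox genes on, 1 fell against 3.69% of all genes, Mllt3, at −1.18 (adjusted p = 0.00505 by edgeR), with a list median of −0.11, and its fold was below the limit, at −0.98, without control mouse 3. The summed level of this list was lower in each NPmut mouse (305 to 435 RPKM) than in any other mouse (460 to 497 RPKM), which was not tested. Against NrasG12D mice edgeR called 0 of the 18, and 4 passed the adjusted p alone, all lower, against 4.97% of all genes tested. Of 25 tested Polycomb genes, which keep Hox genes off, edgeR and DESeq2 each called 0, and the median was 0.04. By edgeR 4 of the 25 had an unadjusted p under 0.05, against 4561 of all 17795 genes tested. Among 13 genes bound by HOXA9 and MEIS1 in leukemia cells, 1 rose against 2.32% of all genes that were higher by this rule, the receptor gene Flt3, at 1.15 (adjusted p = 0.0336 by edgeR), and the median was −0.03. The Flt3 call was lost without control mouse 2 (0.129) or 3 (0.138) or NPmut mouse 1 (0.0674), and without NPmut mouse 3 its fold was below the limit, at 0.84. Of 18 tested homeobox genes outside the clusters, Hlx at 1.19 (adjusted p = 0.000653 by edgeR) and Hopx at 2.19 (adjusted p = 0.00583) rose, and the median was −0.04. A single call in a list is not read as a change of the list.

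**Figure D5:**
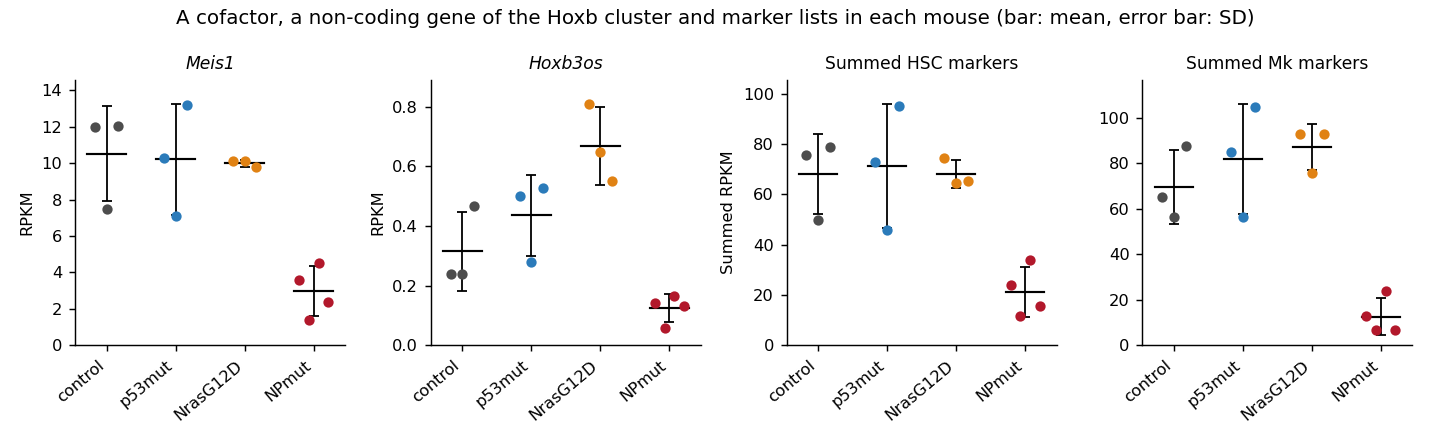
RPKM of Meis1 and Hoxb3os, and summed RPKM of HSC and megakaryocyte markers, in each mouse (points) with group mean and SD. All 4 measures are lowest in the 4 NPmut mice.

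Markers of stem cells and of several lineages moved along with the Hox differences. Of 14 tested HSC markers, a list that holds Meis1, Mllt3 and the untested Hoxb5, 11 fell in NPmut against control mice, with a list median of −1.58 against 0.01 for all genes. Their summed level was 75.7, 49.9 and 78.7 RPKM in control, 72.9, 45.7 and 95.1 in p53mut, 74.4, 64.4 and 65.1 in NrasG12D and 24.0, 11.8, 34.0 and 15.4 in NPmut mice, and Angpt1 was the most abundant. No HSC marker was at 0 in the other groups, while 1 was at 0 in NPmut mouse 2 and 2 in NPmut mouse 4. All 8 tested of 10 megakaryocyte markers fell (median −2.59), and their sum, led by Pf4 in control mice, was 65.1, 56.3 and 87.6 RPKM in control, 84.8, 56.5 and 105 in p53mut, 93.0, 75.6 and 92.9 in NrasG12D and 12.7, 6.85, 24.1 and 6.68 in NPmut mice. Both sums were lower in each NPmut mouse than in any other mouse. Of 13 erythroid markers 3 fell (Gata1, Klf1 and Car2, median −1.22), and the sum, led by Car1 in each mouse but NPmut mouse 2 (Tfrc), was 511, 721 and 754 RPKM in control, 624, 515 and 872 in p53mut, 584, 502 and 460 in NrasG12D and 206, 104, 414 and 376 in NPmut mice.

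Monocyte markers moved the other way, with 10 of 13 higher in NPmut than in control mice (median 1.49). Their sum, led by Lyz2 or F13a1, was 217, 192 and 181 RPKM in control, 195, 267 and 171 in p53mut, 171, 220 and 247 in NrasG12D and 551, 746, 471 and 412 in NPmut mice. The part of these cell types in the Hox differences was not tested.

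Kit, the receptor used for the sort, was at 62.8 RPKM in control and 40.1 RPKM in NPmut mice. Of the T cell and B cell markers, Cd3e had at most 7 counts and Ms4a1 at most 12 in a library, but Nkg7, of the T and NK cell list, was at 39.3 to 74.9 RPKM and Cd79b, of the B cell list, at 5.61 to 15.3 RPKM in every library.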

How the data were processed

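RNA-Seq counts of Lin-cKit+ BM cells from 13 mice were analysed. The authors deposited raw counts per Ensembl gene, and the submitters' processing notes name STAR 2.6.1d, R 3.6.1, DESeq2 1.26.0 and the build GRCm38.p6. The counting program and its strand setting are not given in the sources used here. GENCODE M21 gave symbols and exon lengths for 54809 of 54838 identifiers, and the other 29 held 0.0032% of counts. Each column was matched to its mouse by the mouse code in the labels.

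Counts were tested with edgeR 4.0.16 (R 4.3.3, limma 3.58.1) by robust quasi-likelihood fits of all 13 libraries with a mean per group, TMM factors and filterByExpr, which left 17795 genes. Benjamini-Hochberg adjustment covered all of them, and a gene was called when it had an adjusted p under 0.05 and changed 2-fold or more. There were 6 comparisons, namely NPmut with each other group, each single mutant with control, and the interaction. RPKM used deposited counts, library totals and merged exon lengths. The steps were tested on simulated data. Mice were separate animals, with 0 identical pairs of libraries.

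Alternatives were RLE size factors, library totals, DESeq2 1.42.0, no filter, at least 10 counts in every library, only the compared groups, sex or receptor reads as a term, the replicate number as a block, and each mouse left out. Sex was read from counts of Y-linked genes. By these counts control mouse 1, p53mut mouse 1, NrasG12D mouse 2 and NPmut mice 3 and 4 were male. Background was also counted with the 95th percentile, 0.1 RPKM, 10 counts or the group mean. Replicate numbers are in the labels. Same-numbered control and p53mut mice deviated together (correlations 0.166, 0.163 and 0.152), so the block is taken as pairing those groups. Other pairs of groups did not all pass 0.1 (control and NPmut mouse 1, −0.0422). Mice with different numbers reached 0.239 (control mouse 3 and NPmut mouse 1). In both the control and the p53mut group mouse 1 alone was male, and the part of sex in these correlations was not tested. Only the NPmut group has a mouse 4, which therefore has a term of its own in the block.

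Values of every mouse are given for Hox genes called in any comparison, the 6 with the highest mean RPKM, and the 3 with the largest rise or fall in NPmut against control. In the lists (TALE cofactors, trithorax, Polycomb, HOXA9 and MEIS1 targets, other homeobox genes and markers of 11 cell types), called genes, the 3 most abundant and Meis1 could be named. 1 gene of the lists is not reported here, and the counts of its list are without it. Non-coding genes in the clusters could be named if called or among the 3 with the highest CPM. Other genes, such as Hoxb5, Cd3e and Ms4a1, were named after their values were seen. Members and lists were chosen with earlier results of these data known.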

Additional observations from a re-analysis of the deposited data

Results flagged for a closer look

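In NPmut mouse 3 Hoxb4 was at 1.25 RPKM, far from the other NPmut mice (2.07 to 2.18 RPKM). The gap to the nearest mouse was 0.879 of the group's range, above Dixon's 95% critical value for groups of 4. It was 1 of 18 groups of 4 examined, and chance passes this value in about 1 of 20 groups.

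A difference between the groups' effects, tested as the interaction of both mutations by edgeR, drew attention to 2 genes. Hoxb2 stood at −3.54 on the log2 scale and the antisense gene Hoxb3os at −2.88. Hoxb2 and Hoxb3os share exon bases, so these 2 values are not independent.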

How the results depend on the processing

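In NPmut against control mice, 2 Hox genes were called, and this became 1 with no filter (Hoxb6 lost, 0.0968), 0 with at least 10 counts in every library (Hoxb2 and Hoxb6 were not tested there), 1 with only the compared groups (Hoxb6 lost, 0.0717), 1 with the replicate block (Hoxb6 lost, 0.0526), 0 with receptor reads as a term, and 1 to 3 with a mouse left out. Hoxb2 was lost without control mouse 2 (adjusted p 0.0741). Hoxb6 was lost without control mouse 1 (0.0915), control mouse 3 (0.151), NPmut mouse 1 (0.0768) and NPmut mouse 4 (0.0504). Without NPmut mouse 3 Hoxa10 was called, here and in the other comparisons with NPmut mice and the interaction, and without control mouse 2 Hoxb3. Against NrasG12D mice the 3 calls became 2 with no filter (Hoxb3 lost, 0.0663), 2 with at least 10 counts (Hoxb2 not tested), 2 with sex as a term (Hoxa3 lost, 0.0522), 1 with only the compared groups (Hoxa3 lost, 0.104, and Hoxb3, 0.0727) and 1 to 3 with a mouse left out. Hoxa3 was lost without NrasG12D mouse 1 (0.135), 2 (0.0501) or 3 (0.112), NPmut mouse 1 (0.0619) and NPmut mouse 2 (log2 fold change −0.90). Hoxb3 was lost without NrasG12D mouse 1 (0.0781), 2 (0.0985) or 3 (0.111) and NPmut mouse 1 (0.0642), 2 (0.0622) or 3 (0.0535). Against p53mut mice the 2 calls became 3 with DESeq2 (Hoxa10 added, 0.0491) and 3 with no filter (Hoxb5 added, 0.0265). They became 1 with at least 10 counts (Hoxb2 not tested) and 1 with only the compared groups (Hoxb3 lost, 0.06355). They became 1 with receptor reads as a term (Hoxb2 lost, 0.139) and 1 to 3 with a mouse left out. The 1 interaction call became 2 with DESeq2, 0 with at least 10 counts, and 0 to 2 with a mouse left out, with adjusted p for Hoxb2 from 0.0569 to 0.143 in the 11 fits that lost it. Signs turned only for differences that were not called. In NPmut against control mice with a mouse left out Hoxa5 ran from −0.44 to 0.16 on the log2 scale (0.044 without control mouse 1, 0.012 without control mouse 3, 0.16 without NPmut mouse 2, 0.079 without NPmut mouse 3), Hoxa6 from −0.46 to 0.26 (0.26 without control mouse 1, 0.11 without NPmut mouse 2), Hoxa9 from −0.22 to 0.059 (without control mouse 1) and Hoxb4 from −0.18 to 0.11 (without NPmut mouse 3). Signs also turned for Hoxa4 against NrasG12D mice (−0.74 to 0.058 with a mouse left out), for Hoxa5, Hoxa9 and Hoxb2 in p53mut against control mice, for Hoxa5, Hoxa6 and Hoxb3 in NrasG12D against control mice (Hoxa5 −0.49 to 0.38 and Hoxb3 −0.39 to 0.22 over the alternatives), and for Hoxa4 and Hoxb6 in the interaction. The block changed no other count of Hox calls (p53mut against control, 0 with it). Single-mutant counts were 0 under each alternative. With RLE size factors or library totals each of the 6 counts was as reported. The number of Hox genes above background ran from 7 to 14 of 39 in a group under other percentiles or minimums and from 10 to 13 with a mouse left out, which was chosen after seeing the data. Other causes were not tested. Among the tested Hox genes, Hoxb2 and Hoxb6 rested on few counts, with 1 to 7 per NPmut library. Hoxa4 and Hoxa10 also had fewer than 10 counts in at least 1 NPmut library, and Hoxa10 passed the filter's minimum in only 1 of them.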

Other observations

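Among all genes tested in NPmut against control mice, 2.32% were called higher and 3.69% lower, and 4561 of 17795 had an unadjusted p under 0.05 by edgeR. A single call in a list below is not read as a change of the list. Of the remaining marker lists, 3 of 11 multipotent and lymphoid-primed progenitor markers rose (Flt3, Ighm and Dntt), and the summed level was 215 ± 32.5 RPKM in control (SD, n = 3), 234 ± 20.4 in p53mut (SD, n = 3), 325 ± 45.2 in NrasG12D (SD, n = 3) and 339 ± 77.7 in NPmut mice (SD, n = 4). In NrasG12D against control mice edgeR called 0 of these 11 and DESeq2 called 2, and each NrasG12D sum was above each control sum. By edgeR 7 of the 11 had an unadjusted p under 0.05, against 1642 of all 17795 genes tested, and the list median was 0.52. Of 10 tested dendritic cell markers 5 rose and 1 fell, with sums of 27.1 ± 1.82 RPKM in control, 26 ± 2.52 in p53mut, 44.8 ± 6.70 in NrasG12D and 62.9 ± 22.8 in NPmut mice (SD, same n). Neutrophil markers, led by Mpo, had 1 of 14 higher (Mmp8) and sums of 5560 ± 472 in control and 6610 ± 1590 RPKM in NPmut mice, which overlapped. Of 8 tested mast cell markers, led by Kit, 1 fell (Fcer1a). T and NK cell markers had 1 of 6 higher (Tcf7) and 1 lower (Gata3), and stromal and endothelial markers 1 of 8 higher (Fn1) and 3 lower. For B cell markers edgeR called 0 of 5, with 2 at an unadjusted p under 0.05, and DESeq2 called 0.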
